A study of Mus musculus with 6 samples.

Results

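Tcf3, Tcf12, Id1, Id2 and Id3 are the E protein and Id genes described here, 5 of the 22180 genes that the arrays give a value for. They were chosen by gene family, and each was read from the probe set that carried its name alone and had the highest mean over all 6 arrays. Each of the 5 had 1 such probe set, and all 5 were bright enough to be tested. RNA of Ly6D- common lymphoid progenitors from bone marrow, sorted as LineageLo, cKit+, Sca+, CD127+, Thy1.2- and Ly6D- cells, was measured on Affymetrix arrays. There were 3 arrays from OcnCre+;iDTR+/- mutant mice and 3 from OcnCre-;iDTR+/- control mice, all adults of 6 to 8 weeks. Ocn is osteocalcin, a gene of bone-forming cells, and in the mutants its promoter drives the Cre recombinase that switches on iDTR, a receptor for diphtheria toxin. Both genotypes received the toxin every day for 4 weeks, so that toxin and iDTR are shared and Cre is what differs. The label for the condition names deletion of Ocn+ cells in both groups, although the controls carry no Cre. Nothing in the labels ties a replicate to 1 mouse or to a pool, and p-values therefore cover the spread between these 6 samples, which may be technical.

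E proteins are transcription factors of the basic helix-loop-helix family. They bind DNA as pairs at the E-box, a short site written CANNTG, and start the B and T lymphocyte programmes. Id proteins have the helix-loop-helix but lack the basic part that touches DNA, so an E protein paired with an Id protein does not bind. In mice, Tcf3 encodes the E2A proteins needed for B cell development and Tcf12 encodes HEB, which acts in early T cells. Id2 is needed for natural killer and innate lymphoid cells, Id3 restrains E proteins in developing T and B cells, and Id1 is active in stem and myeloid progenitor cells. Id genes are themselves switched on by BMP signals through SMAD proteins and, in thymocytes, by EGR factors.

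The 250 bases before the transcription start are shown for the members that matched a promoter entry of RefSeq (build GRCm38.p6), because the E-box is the site at which these proteins act. Of the 5 genes 4 matched, all but Id1. The windows are chr10:80433636-80433885 on the minus strand for Tcf3, chr9:72111820-72112069 on the minus strand for Tcf12, chr12:25096093-25096342 on the minus strand for Id2 and chr4:136143572-136143821 on the plus strand for Id3. Each runs 5′ to 3′ towards the start, with E-boxes in capitals.
Tcf3: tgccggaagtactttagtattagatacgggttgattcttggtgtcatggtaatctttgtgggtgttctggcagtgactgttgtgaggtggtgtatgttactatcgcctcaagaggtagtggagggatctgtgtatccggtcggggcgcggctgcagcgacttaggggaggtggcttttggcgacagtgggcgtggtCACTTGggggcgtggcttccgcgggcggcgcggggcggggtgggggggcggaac
Tcf12: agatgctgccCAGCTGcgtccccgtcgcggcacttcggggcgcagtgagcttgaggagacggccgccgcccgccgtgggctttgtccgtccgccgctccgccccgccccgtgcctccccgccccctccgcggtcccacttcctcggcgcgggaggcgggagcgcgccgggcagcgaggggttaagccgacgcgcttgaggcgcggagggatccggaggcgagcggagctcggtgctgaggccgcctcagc
Id2: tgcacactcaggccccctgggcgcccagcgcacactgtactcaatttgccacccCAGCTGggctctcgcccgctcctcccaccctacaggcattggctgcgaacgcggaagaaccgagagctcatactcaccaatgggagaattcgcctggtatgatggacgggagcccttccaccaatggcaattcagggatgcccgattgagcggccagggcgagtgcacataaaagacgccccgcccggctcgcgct
Id3: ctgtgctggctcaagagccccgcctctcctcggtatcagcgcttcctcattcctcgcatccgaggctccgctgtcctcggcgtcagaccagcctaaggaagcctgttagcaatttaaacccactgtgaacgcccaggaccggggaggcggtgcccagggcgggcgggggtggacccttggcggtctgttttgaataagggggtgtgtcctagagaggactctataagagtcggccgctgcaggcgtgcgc
Tcf12 had 3 annotated starts, and the one farthest upstream is shown. The window of its next start held 1 E-box, CAAGTG, 149 to 144 bases before that start, and the window of its last start held 0. CANNTG reads the same on both strands, and it was found in 66.2% of the 32851 promoter windows of this length searched, so a match is common. The Tcf3 window held 1 E-box, CACTTG, which lies 54 to 49 bases before the start. The windows shown for Tcf12 and Id2 each held 1 E-box of the form CAGCTG, at 240 to 235 bases before the start of Tcf12 and 196 to 191 before that of Id2. CAGCTG, a subset of CANNTG that also reads alike on both strands, was in 4271 of the 32851 windows. The Id3 window held 0 matches to CANNTG. The form CAGGTG, which reads CACCTG on the other strand, and GCGNGGGCG, an EGR motif searched on both strands, were in 0 of these 4 windows, against 17.2% and 4.70% of all windows. A match is a stretch of letters and not a measured binding site.

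Values are log2 intensities, so a difference of 1 is a doubling of signal, and each probe set has its own brightness, so levels are not compared between genes. Mutant replicate 2 stood apart from the other arrays, with correlations of 0.935 to 0.954 to them over all probe sets, against 0.973 to 0.989 among the other 5. Bright genes were lower on mutant replicates 2 and 3. With all genes cut by mean level into 10 equal groups, Tcf3 and Tcf12 lie in the brightest, where the median deviation from the control mean was −0.41 on mutant replicate 2 and −0.19 on mutant replicate 3, against −0.0018 on mutant replicate 1. In the group of Id2 these medians were −0.29, −0.18 and 0.0083, and in the groups of Id1 and Id3 they were smaller, at most 0.097 on mutant replicate 2. Eif2s3y, a gene of the Y chromosome, was low on mutant replicate 3 (4.77) and control replicate 1 (4.88) and at 7.31 to 7.85 on the other 4 arrays, a split that runs across both genotypes. Xist, the RNA of the inactive X chromosome, was at 10.72 and 11.04 on those 2 arrays. It was at 8.03 on mutant replicate 1 and 8.07 on control replicate 2, which were high in Eif2s3y too, against 5.57 on mutant replicate 2 and 6.57 on control replicate 3. Genes of the sorted cell were bright on every array, with Il7r (the CD127 gene) at 9.72 to 9.80 in mutants and 9.81 to 10.35 in controls, and Dntt, the terminal transferase gene, at 10.61 to 10.93 and 10.93 to 11.04. One label calls the tissue bone marrow stromal cells. Of 8 stromal and osteoblast markers 5 were tested and 3 were too dim, a share close to the 40% of all genes left out as dim. That count therefore tells little about stromal cells. The sample titles and the sort name the lymphoid progenitor, whose genes Il7r and Dntt were bright.

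None of the 5 genes differed between mutant and control progenitors past the threshold, an adjusted p of 0.05 in limma. Neither did any other gene: 0 of 13308 tested genes passed (0%), while 1068 (8.03%) had p under 0.05 before adjustment, of which 267 (2.01%) were higher in mutants and 801 (6.02%) lower. An unmoderated test also passed 0 genes, with 879 under 0.05 before adjustment. All 5 members were above 0.05 without adjustment in limma. Mutant and control values overlapped for all 5 members, as they did for most tested genes. Of all genes tested 15.4% had separate groups (5.4% with mutants higher and 9.99% with mutants lower). The mutant mean was lower for 4 of the 5, Id1 being the exception, and it was lower for 57.5% of all tested genes. Weighting the arrays by their spread, with most weight on mutant replicate 3, passed 2960 genes, among them Tcf3 (−0.99), Tcf12 (−0.36) and Id3 (−0.44).

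Among the E proteins, Tcf3 was the most uneven. It was at 9.30, 10.02 and 8.58 in mutant replicates 1, 2 and 3, and at 9.26, 9.81 and 9.72 in control replicates 1, 2 and 3. Both the highest and the lowest value of the 6 arrays were therefore mutant ones, and the mutant range of 1.44 enclosed the control range of 0.55. The means were 9.30 ± 0.72 in mutants and 9.60 ± 0.29 in controls (SD, n = 3 each), a difference of −0.30 ± 0.34 (SE; 95% confidence interval −1.08 to 0.47; limma adjusted p = 0.734). On a linear scale the interval runs from 0.475 to 1.39 times the control level. An exact 2-sided permutation test over the 6 arrays gave p = 0.7, where the smallest p that 3 against 3 arrays allow is 0.1. The difference rests on single arrays: it was −0.66 without mutant replicate 2, 0.060 without mutant replicate 3, −0.47 without control replicate 1 and −0.19 without control replicate 2. After cyclic loess, which removes trends in brightness between arrays, it was −0.11, with repeated quantile normalization −0.18 and with Eif2s3y as a covariate −0.24. The covariate changed the SE from 0.34 to 0.25. Mutant replicate 3 and control replicate 1, the arrays low in Eif2s3y, were the lowest of their groups in Tcf3. Of the tested genes 2.79% had a larger spread within groups than Tcf3, whose pooled SD was 0.55, against a median of 0.18.

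Tcf12, the HEB gene, was steadier and had the lowest p of the 5. It was at 8.00, 7.79 and 7.74 in mutant replicates 1, 2 and 3, and at 7.98, 8.18 and 8.14 in control replicates 1, 2 and 3. Mutant replicates 2 and 3 lay below every control, while mutant replicate 1 lay just above control replicate 1, the lowest of its group. Means were 7.85 ± 0.14 in mutants and 8.10 ± 0.11 in controls (SD, n = 3 each), a difference of −0.26 ± 0.13 (SE; 95% confidence interval −0.55 to 0.03; limma adjusted p = 0.594, unadjusted p = 0.0765). The exact permutation p was 0.2. The difference stayed between −0.33 and −0.20 on leaving out any 1 array. It was −0.09 after cyclic loess and −0.10 after a repeated quantile normalization, and −0.24 with Eif2s3y as a covariate.

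**Figure D1:**
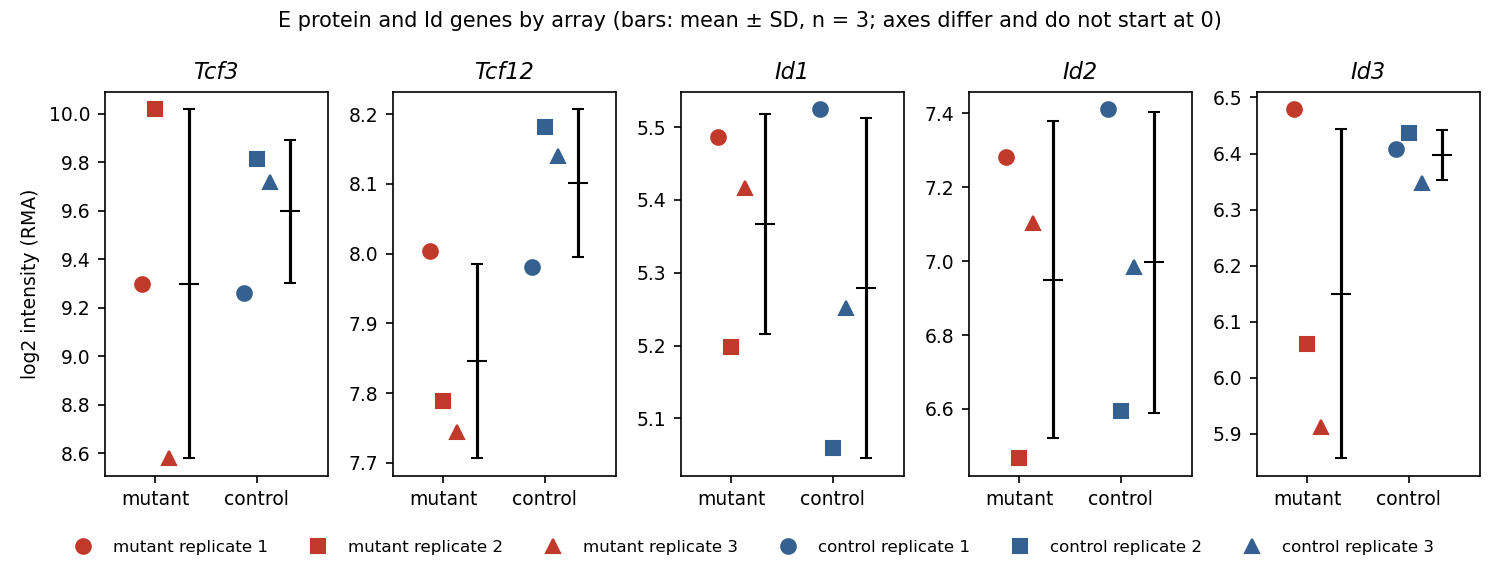
Log2 intensity of Tcf3, Tcf12, Id1, Id2 and Id3 on each array, mutant (red) left of control (blue), with the symbol giving the replicate number and black bars the mean ± SD of 3 arrays. Axes differ between genes and do not start at 0. Values of the groups overlap for all 5 genes, and the mutant values of Tcf3 spread from 8.58 to 10.02.

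Of the Id genes, Id3 had the lowest p. It was at 6.48, 6.06 and 5.91 in mutant replicates 1, 2 and 3, and at 6.41, 6.44 and 6.35 in control replicates 1, 2 and 3. The controls lay within 0.09 of each other, with mutant replicate 1 above and mutant replicates 2 and 3 below all of them. The means were 6.15 ± 0.29 in mutants and 6.40 ± 0.04 in controls (SD, n = 3 each), and the difference was −0.25 ± 0.16 (SE; 95% confidence interval −0.62 to 0.12; limma adjusted p = 0.609; exact permutation p = 0.4). Leaving out mutant replicate 1 gave −0.41, and leaving out mutant replicate 3 gave −0.13. After cyclic loess it was −0.21.

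Id2, the Id gene of innate lymphoid cells, differed more within each group than between the groups. It was at 7.28, 6.47 and 7.10 in mutant replicates 1, 2 and 3, and at 7.41, 6.59 and 6.98 in control replicates 1, 2 and 3. Each group spanned a range of about the same size, 0.815 in mutants and 0.816 in controls. The means were 6.95 ± 0.43 in mutants and 6.996 ± 0.41 in controls (SD, n = 3 each), a difference of −0.05 ± 0.26 (SE; 95% confidence interval −0.66 to 0.56; limma adjusted p = 0.948; exact permutation p = 0.8). The sign turned on leaving out mutant replicate 2 (0.20) or control replicate 1 (0.16) and after cyclic loess (0.058) or repeated quantile normalization (0.034). Centring gave −0.11 and Eif2s3y as a covariate −0.079. Leaving out control replicate 2 gave −0.25. The value was −0.21 when the first mutant array was left out and −0.12 when the third was.

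Id1 lay nearest to the limit for testing, its mean being 0.49 above it, and the deposited values carry no detection call. It was at 5.49, 5.20 and 5.42 in mutant replicates 1, 2 and 3, and at 5.52, 5.06 and 5.25 in control replicates 1, 2 and 3. The control values spread more widely and enclosed those of the mutants. The means were 5.37 ± 0.15 in mutants and 5.28 ± 0.23 in controls (SD, n = 3 each), a difference of 0.09 ± 0.15 (SE; 95% confidence interval −0.27 to 0.44; limma adjusted p = 0.829; exact permutation p = 0.7). It was −0.021 without control replicate 2, 0.21 without control replicate 1, 0.17 without mutant replicate 2 and 0.029 without mutant replicate 1. Centring on array medians gave 0.026, cyclic loess 0.027 and repeated quantile normalization 0.034. The fourth gene of the family, Id4, was too dim to be tested, at 3.93 ± 0.05 in mutants and 3.92 ± 0.02 in controls (SD, n = 3 each).

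**Figure D2:**
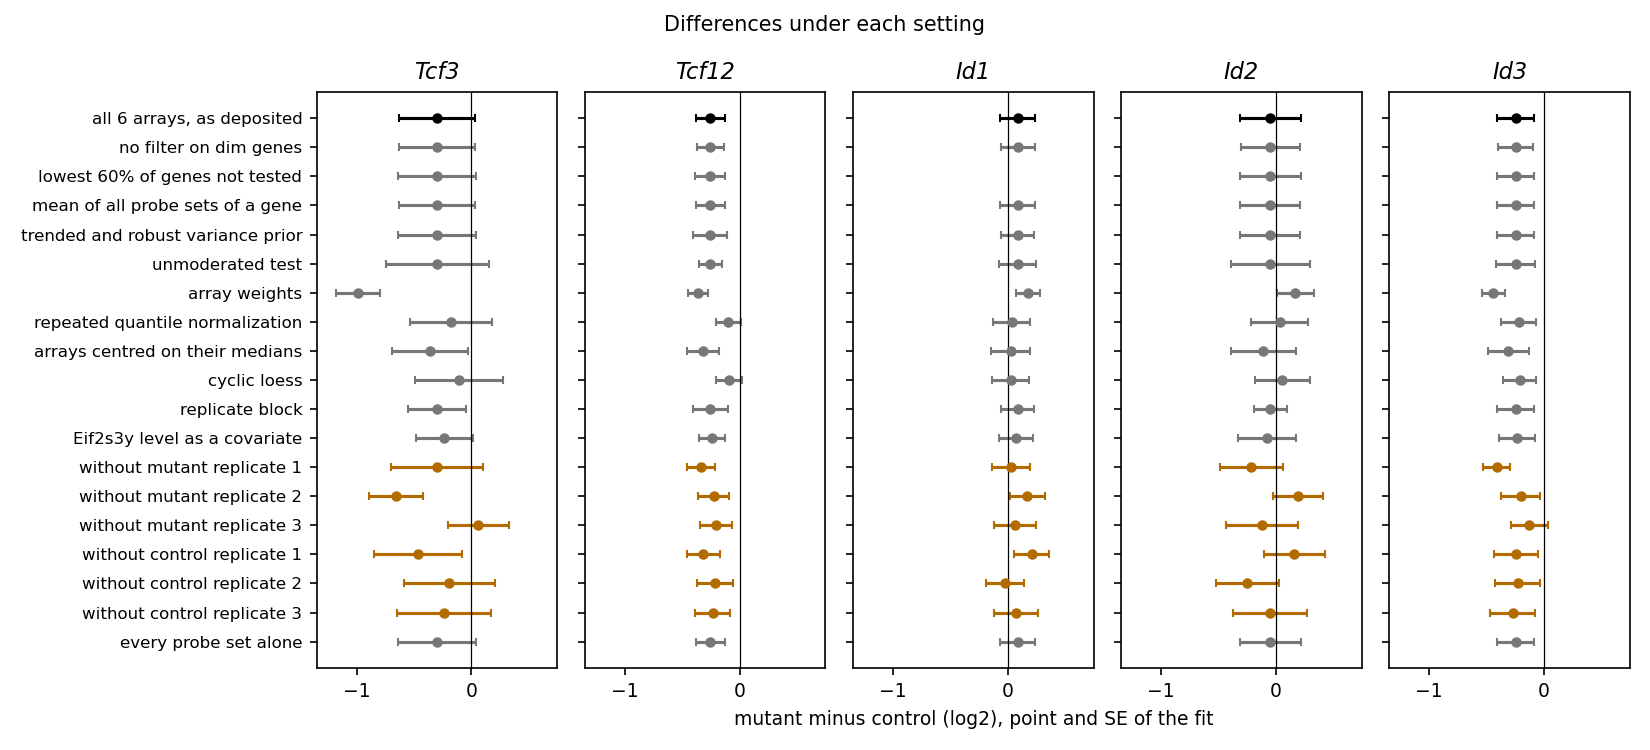
Mutant minus control on the log2 scale for each gene, with the SE of the fit, for all 6 arrays as deposited (black), other settings (grey) and fits without 1 array (orange). Tcf12 and Id3 stay below 0 in every setting drawn, Tcf3 turns to 0.060 without mutant replicate 3, and the signs of Id1 and Id2 depend on the setting. Id1 has no point where the lowest 60% of genes were not tested.

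The members followed 2 patterns over the arrays, with Tcf3 apart from both. Id1 and Id2 were each highest on mutant replicate 1 and control replicate 1 and lowest on mutant replicate 2 and control replicate 2, and their Pearson correlation over the 6 arrays was 0.92 (0.97 after the group means were removed). Tcf12 and Id3 shared their lowest values, on mutant replicates 2 and 3, with a correlation of 0.85 (0.78 within groups). Tcf3 ran against Id1 (−0.70) and Id2 (−0.68), being lowest on mutant replicate 3 and control replicate 1 and highest on mutant replicate 2 and control replicate 2. The other 6 of the 10 pairs of members lay between −0.36 for Tcf12 with Id1 and 0.45 for Tcf3 with Tcf12. These are descriptions over 6 arrays that share genotype and array quality, and they carry no test.

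The genes most like each member over the 6 arrays were found by Pearson correlation among all tested genes, predicted genes aside. Id2 was followed most closely by Nkg7, a granule gene of killer cells, at 8.82, 7.49 and 8.65 in mutant replicates 1, 2 and 3 and 9.05, 7.73 and 8.37 in the controls (r = 0.997), then by Fam120aos (0.994) and Rab44 (0.993). Id1 was followed by Vcp (0.998) and by Pf4, a platelet chemokine gene, and Prtn3, a neutrophil protease gene (0.995 and 0.994). Prtn3 was at 8.21, 7.30 and 7.92 in mutant replicates 1, 2 and 3 and at 8.27, 6.69 and 7.49 in the controls. Tcf3 was followed by Irgq (0.995), by H1f5, a linker histone gene (0.994), and by Ap1b1 (0.993). H1f5 was at 10.29, 11.18 and 9.21 in mutant replicates 1, 2 and 3 and at 10.27, 10.85 and 10.69 in the controls, so it too had both its highest and its lowest value in mutants. Tcf12 was followed by Itpr2 (0.998), Ythdc1 and Lbh (both 0.997), and Id3 by the nuclear receptor coactivator gene Ncoa1 (0.998), the clathrin gene Clta (0.997) and Micos10 (0.995). A correlation over 0.95 was reached by 236 tested genes for Tcf12, 113 for Id3, 73 for Tcf3, 40 for Id2 and 39 for Id1.

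Some marker lists of other cells moved with Id1 and Id2 from array to array, and others ran against them. To score a list on an array, each tested marker's control mean was subtracted from its log2 value, and the median was taken over the markers. Over 10 of 10 myeloid markers it came to 0.57, −0.18 and 0.02 in mutant replicates 1, 2 and 3, against 0.32, −0.13 and −0.02 in control replicates 1, 2 and 3. Of these markers 5 had a higher and 5 a lower mean in mutants. Granule genes of the list were bright on every array. Mpo was at 10.51 to 11.45 in mutants and 9.48 to 11.36 in controls, and Elane at 9.49 to 10.56 and 8.05 to 10.34. Other markers differed from these: Csf1r was at 5.99 to 6.39 in mutants and 6.43 to 6.60 in controls. Lyz2 was lower on control replicate 1 (10.14) than on control replicates 2 and 3 (10.57 and 10.40). Immediate early genes are switched on quickly by stimulation or by handling of cells, and the score of the 16 listed was 0.89, −0.03 and 0.35 in mutants and 0.45, −0.68 and 0.10 in controls. The correlations of Id2 with these scores were 0.84 and 0.80, and those of Id1 were 0.82 and 0.92. The erythroid and megakaryocyte score, over 7 of 10 markers, was 0.32, −0.02 and 0.34 in mutants and 0.25, −0.09 and −0.06 in controls. Its correlations were 0.90 to Id1, 0.78 to Id2 and −0.87 to Tcf3. Those of the stem and multipotent progenitor score, over 4 of 9 markers, were 0.84 to Id1 and 0.76 to Id2.

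Of 14 listed markers of the innate lymphoid and natural killer cells, which need Id2, 10 were tested, and the natural killer genes Eomes, Gzma and Gzmb were too dim. The 10 scored −0.02, −0.01 and −0.04 in mutant replicates 1, 2 and 3, against 0.15, −0.27 and 0.01 in the controls (r = 0.64 to Id2 and 0.76 to Id1). Id1 is also active in endothelial cells, and of 8 markers of these 3 were tested, with scores of −0.12, −0.04 and −0.14 in mutants and −0.09, 0.16 and 0.0027 in controls. This score ran against Id1 (−0.87) and Id2 (−0.64), as did that of the 5 tested stromal and osteoblast markers (−0.59 and −0.71). In these bulk samples a different share of cells and a different level per cell cannot be told apart, and the part of other cells in the values of Id1 and Id2 was not tested.

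**Figure D3:**
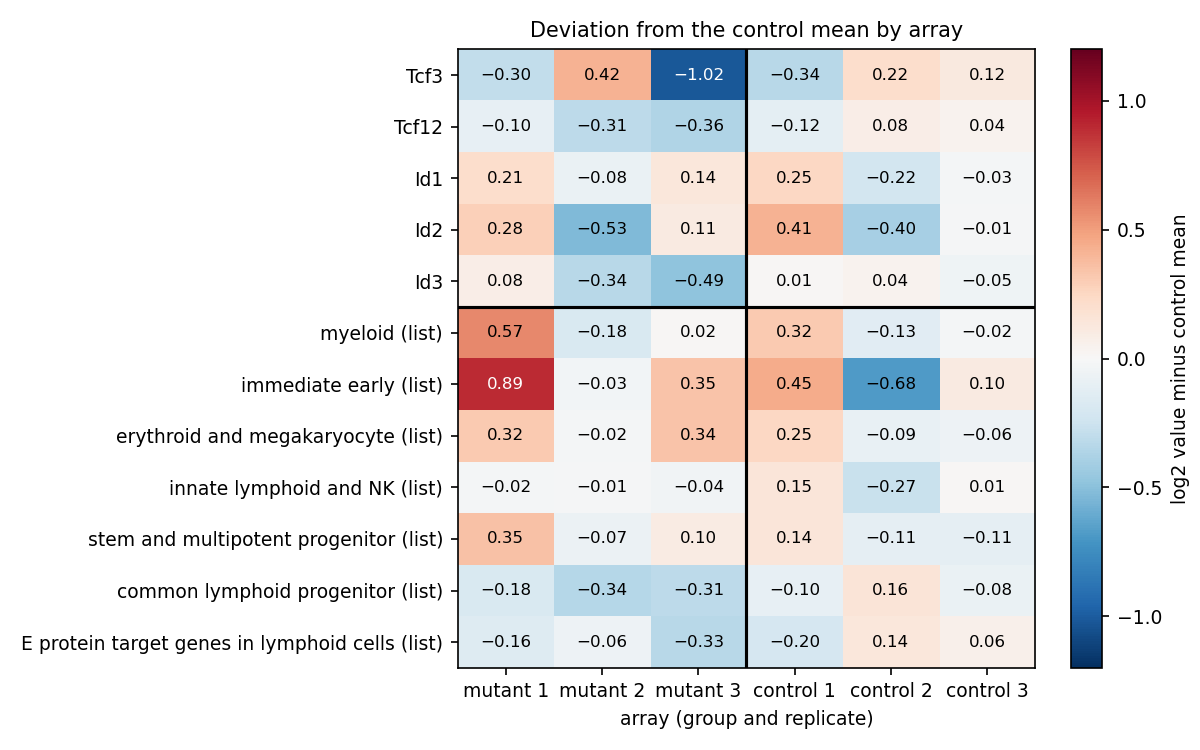
Log2 value minus the control mean for each member (top) and the median of the same over each marker list (below), by array, with mutants left. Id1, Id2, the myeloid list and the immediate early list are high on the first replicate of each group, while Tcf3 is at −1.02 on mutant replicate 3 and 0.42 on mutant replicate 2.

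Genes that E proteins are known to regulate leaned lower in mutants, with none past the threshold. Of 19 listed target genes 16 were tested, and in mutants 13 of them had a lower mean and 3 a higher one (median −0.19, against −0.04 over all tested genes). Most of the 16 lie in the brightest of the 10 groups by mean level, so the median of all genes is not matched to them in brightness. In that group the median deviation from the control mean was −0.0018, −0.41 and −0.19 on mutant replicates 1, 2 and 3. The part of brightness in the lean of the target list was not tested. The groups did not overlap for 3 of the 16, all lower, where 9.99% of all genes tested had mutants lower without overlap. That share is over genes of every brightness, while all 3 lie in the brightest group. The 3 were Rag2, Dntt and Il7r, which are also markers of the sorted progenitor. Of the 7 markers listed for that progenitor 6 were tested, all 6 with a lower mean in mutants and the same 3 without overlap (median −0.22). The 6 include Ly6d, which the sort excluded and which differed by −0.57 ± 0.29 (SE), while Kit differed by −0.02. The list scored −0.18, −0.34 and −0.31 in mutant replicates 1, 2 and 3, against −0.10, 0.16 and −0.08 in the controls, and its part in the values of the target list was not tested. Cdkn1a, the gene of the cell cycle inhibitor p21, was at 8.39, 7.42 and 7.49 in mutant replicates 1, 2 and 3 and at 8.33, 8.73 and 8.61 in the controls (−0.79 ± 0.26, SE; limma adjusted p = 0.594). Igll1, a surrogate light chain gene of early B cells, differed by −0.42 ± 0.17 and Il7r, the IL-7 receptor gene, by −0.34 ± 0.15 (adjusted p = 0.594 for both). Ebf1, the B lineage factor that E2A induces, was at 9.92 ± 0.12 in mutants and 9.87 ± 0.11 in controls, Foxo1 at 8.41 ± 0.26 and 8.52 ± 0.21, and Notch1 at 7.22 ± 0.18 and 7.37 ± 0.09 (SD, n = 3 each). The score of the target list was −0.16, −0.06 and −0.33 in mutant replicates 1, 2 and 3 and −0.20, 0.14 and 0.06 in control replicates 1, 2 and 3. It was lowest on mutant replicate 3, the array lowest in Tcf3 and Tcf12, and its correlation over the 6 arrays was 0.85 to Tcf3 and 0.77 to Tcf12. Next lowest was control replicate 1, the lowest of the controls in Tcf3. These arrays were the ones low in Eif2s3y, and the part of that split in the correlations was not tested. With Eif2s3y as a covariate the median of the target list was −0.18. Tcf12 had higher correlations with other lists, 0.91 with the progenitor markers, 0.88 with the 2 tested markers of mature B and plasma cells, 0.86 with the BMP and TGF-beta genes and 0.82 with the partners and cofactors. After cyclic loess the median of the list was −0.039, and without mutant replicate 3 it was −0.09.

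Partners and cofactors of E proteins stayed close to the median of all genes. Of 15 listed 14 were tested, 9 of them lower and 5 higher by their means in mutants (median −0.06). Tal1 and Lyl1, helix-loop-helix partners of E proteins in blood progenitors, were at 5.21 ± 0.10 and 7.43 ± 0.25 in mutants, against 5.27 ± 0.14 and 7.59 ± 0.04 in controls (SD, n = 3 each). The corepressor gene Runx1t1 differed by 0.34 ± 0.14 (SE), with 4.84, 5.26 and 4.98 in mutants against 4.71, 4.79 and 4.56 in controls. It was tested only because of its mutant mean, 5.03, as its control mean of 4.69 was under the limit of 4.84. The coactivator gene Ep300 differed by −0.20 ± 0.12 and Tal2 by 0.14 ± 0.12, and no gene of this list passed (lowest limma adjusted p = 0.594). The groups were separate, with mutants lower, for Ep300 alone, 1 of 14 against 9.99% of all genes tested. Runx1t1 was separate with mutants higher, and since the filter let it pass through that group it is not counted. The median turned to 0.032 after cyclic loess and to 0.056 after repeated quantile normalization.

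Genes of BMP and TGF-beta signalling, the route to the Id genes, leaned lower without passing. Of 20 listed 14 were tested, 10 lower and 4 higher (median −0.15, against −0.04 over all tested genes). The list median was −0.066 without mutant replicate 2 and −0.048 without the filter on dim genes. The BMP receptor genes Bmpr1a, Bmpr1b, Acvr1 and Acvrl1 and the SMAD genes Smad9 and Smad6 were too dim. Tgfbr1, a TGF-beta receptor gene, was at 5.69, 5.56 and 5.57 in mutant replicates 1, 2 and 3 and at 6.03, 6.25 and 5.88 in the controls (−0.44 ± 0.13, SE). Every mutant value lay below every control value. Smad5, which carries BMP signals to Id promoters, was at 5.97, 5.69 and 5.85 in mutants and 6.18, 6.12 and 6.15 in controls (−0.31 ± 0.12). The activin receptor gene Acvr2b had a difference of 0.41 ± 0.18, but it was tested only because of its mutant mean (5.06), its control mean (4.66) being under the limit of 4.84. Each of these genes had a limma adjusted p of 0.594. The groups did not overlap for 3 of the 14, Tgfbr1, Smad5 and Smurf1, all lower, against 9.99% of all tested genes. The list holds genes that carry the signal and genes that restrain it, so its median does not measure signal to the Id genes. Among the restraining genes tested, Smurf1 differed by −0.17, Smurf2 by −0.27, Smad7 by −0.13 and Bambi by 0.02.

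Among other regulators of Id genes and of the stability of these proteins, 10 of 11 were tested, 6 higher and 4 lower (median 0.03). Egr1, the EGR gene through which T cell receptor signals raise Id3 in thymocytes, was at 8.04, 6.20 and 6.38 in mutant replicates 1, 2 and 3 and at 7.14, 4.99 and 5.87 in the controls (0.88 ± 0.62, SE; limma adjusted p = 0.622). Egr3 was at 6.20, 5.92 and 6.18 in mutants and 5.71, 5.83 and 5.69 in controls, with no overlap (0.35 ± 0.13), and Egr2 differed by 0.39 ± 0.18 (adjusted p = 0.594 for both). All 3 EGR genes are also on the list of immediate early genes, where 15 of 16 had a higher mean in mutants (median 0.44), and the part of handling in their values was not tested. Egr1 was highest on mutant replicate 1 and control replicate 1, as Id1 and Id2 were. Id3 too was highest on mutant replicate 1, but its highest control was replicate 2 (6.44), where Egr1 was lowest (4.99). The correlation of Id3 with the immediate early score was 0.03. Huwe1, a ubiquitin ligase gene, differed by −0.18 ± 0.11 (limma adjusted p = 0.61), and every mutant value lay below every control value. Of the 10 tested genes, 1 was thus separate with mutants higher and 1 with mutants lower, against 5.4% and 9.99% of all genes tested.

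**Figure D4:**
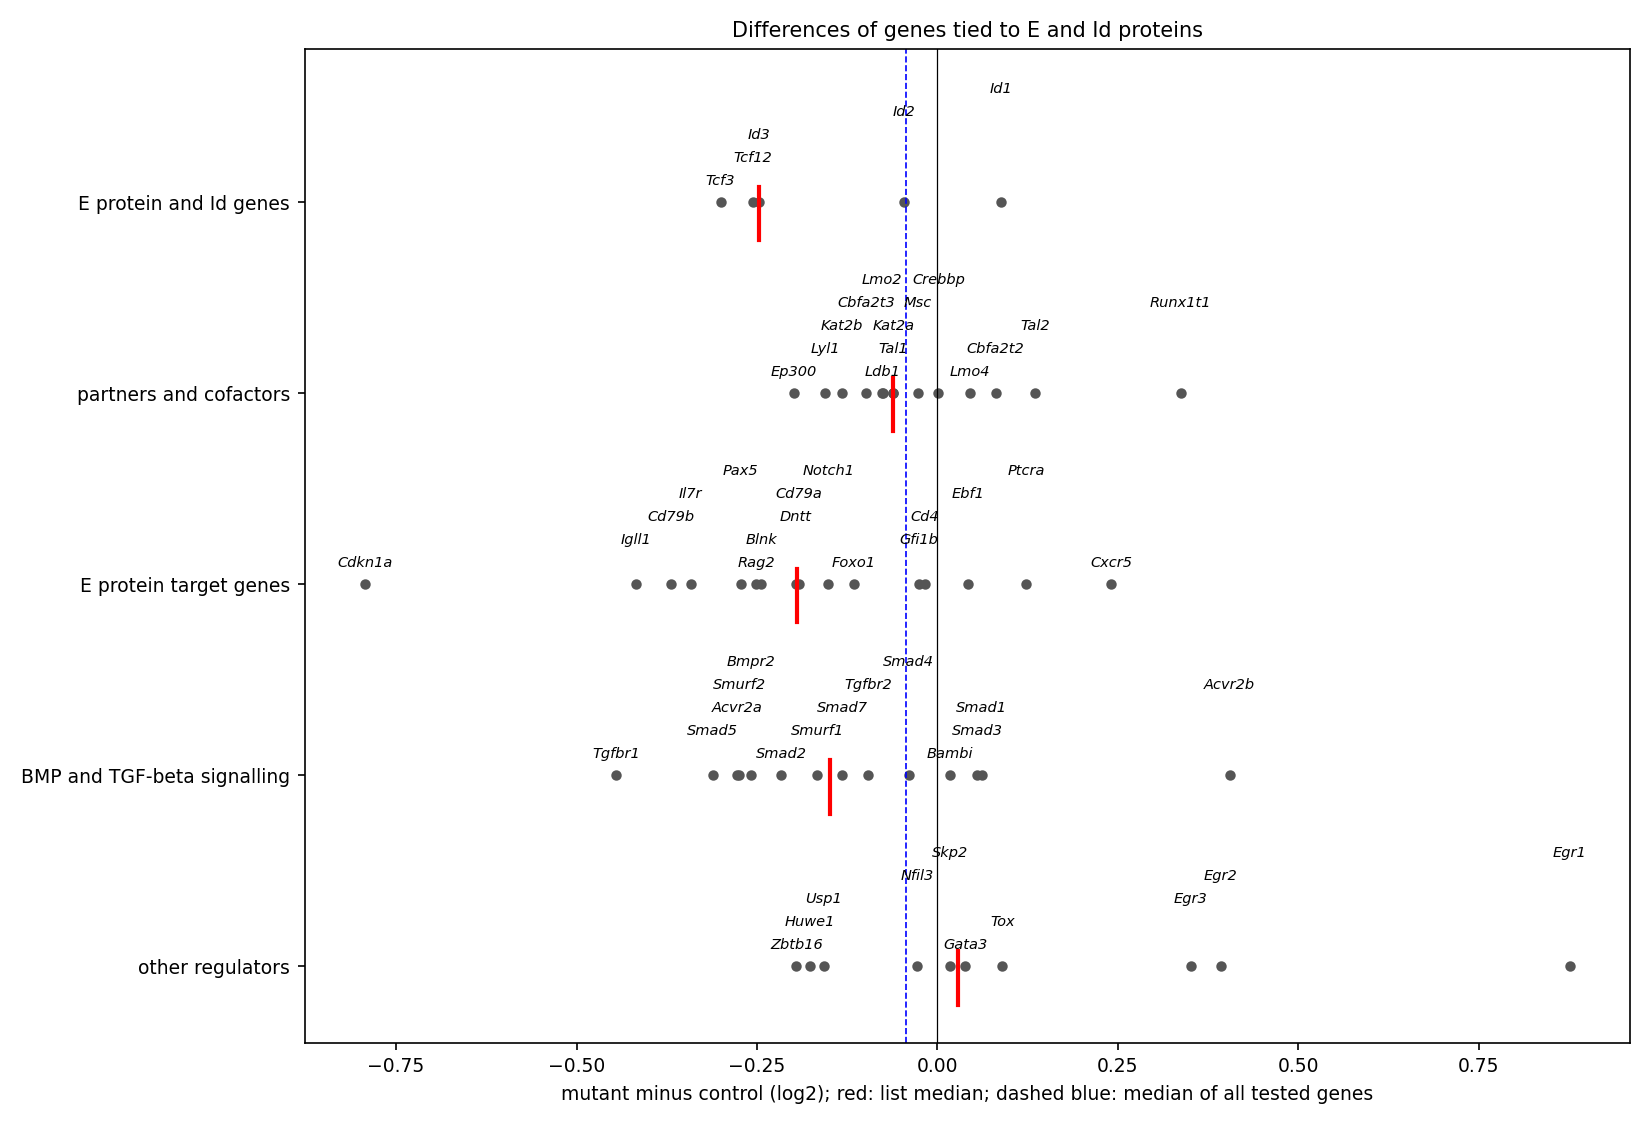
Mutant minus control on the log2 scale for each tested gene of the E protein and Id family and of the 4 lists of genes tied to it. Red marks are list medians and the dashed blue line is the median of all 13308 tested genes, −0.04, which is not matched to the lists in brightness. The target list, most of it bright genes, has its median at −0.19.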

How the data were processed

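The 6 samples were grouped by genotype, with replicate numbers from the sample titles. The authors deposited log2 probe set intensities, 1 column per array. RMA is the tool named in the submitters' processing notes, and for its version, its annotation and the build no entry was found ("not given in the sources used here"). Per the labels' protocols, RNA was amplified with NuGen Ovation V2 and biotin-labelled. Of 41345 probe sets 23521 carried 1 gene symbol, 1814 several and 16010 none, and only the first were named. Each of 22180 genes was read from its brightest probe set, and the lowest 40% by mean over all arrays (under 4.84) were not tested, which left 13308. Rag1 and Stub1 had no probe set of their own name and were not tested, and 1 listed gene is not reported here.

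The comparison was fitted in limma (version 3.58.1, R 4.3.3) with lmFit and eBayes, 2-sided, with Benjamini-Hochberg adjustment over all 13308 genes, and the fit was tested on simulated data. Differences are mutant minus control, with limma's standard errors. For arrays, depth is not defined, and 3 per group limit the precision. Lists were described by counts and medians, with no test of their own. The members and lists were chosen with earlier results of these data known. Named genes were the members, the 3 genes with the lowest p in each list, as none passed, a fixed set of regulators, and the 3 genes most alike in pattern to each member; other list genes were named to describe the lists, after their values were seen. Figures were drawn with matplotlib 3.10.9. The alternatives tried were other filters, other summaries of probe sets, other variance priors, an unmoderated test, array weights, repeated quantile normalization, centring on array medians, cyclic loess, the replicate number as a block, Eif2s3y as a covariate, and leaving out each array in turn.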

Additional observations from a re-analysis of the deposited data

How the results depend on the processing

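No member passed in any setting other than array weights, which gave 2960 genes past the threshold against 0 with equal weights. There Tcf3 differed by −0.99 (limma adjusted p = 0.0116), Tcf12 by −0.36 (adjusted p = 0.0188) and Id3 by −0.44 (adjusted p = 0.0181), and Id2 was at 0.17. That fit gave mutant replicate 3, which is lowest in these 3 genes, a weight of 5.20, against 0.66 when weights were estimated without the groups. Over all alternatives the adjusted p was 0.0116 to 0.951 for Tcf3, 0.0188 to 0.886 for Tcf12, 0.229 to 0.979 for Id1, 0.46 to 0.975 for Id2 and 0.0181 to 0.886 for Id3.

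On leaving out 1 array the count of genes past the threshold was 0 to 4, with 4 without mutant replicate 1 and 1 without mutant replicate 2. The differences ran from −0.66 to 0.060 for Tcf3 (reversed without mutant replicate 3), from −0.33 to −0.20 for Tcf12, from −0.021 to 0.21 for Id1 (reversed without control replicate 2), from −0.25 to 0.20 for Id2 (reversed without mutant replicate 2 and, at 0.16, without control replicate 1) and from −0.41 to −0.13 for Id3. Id2 also reversed with repeated quantile normalization (0.034) and cyclic loess (0.058).

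List medians moved by more than their spread between replicates in some settings. The partner and cofactor median was 0.056 with repeated quantile normalization, −0.12 with centring and 0.032 with cyclic loess. The target list was at −0.36 with array weights. The BMP and TGF-beta list was at −0.048 without a filter on dim genes, and −0.20 to −0.066 on leaving out 1 array. The list of other regulators was at −0.034 with centring. Centring moved the median of all tested genes to −0.11, and cyclic loess to −0.0084. The cause of these shifts was not tested.

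Replicate numbers matched the samples only in part: deviations from the group means correlated at 0.13, 0.20 and −0.13 for replicates 1, 2 and 3. Mutant replicates 1 and 2 correlated best with the control of the same number, and mutant replicate 3 with control replicate 1 (0.20). A block of replicate number changed the SE from 0.34 to 0.25 for Tcf3 and from 0.26 to 0.14 for Id2. It changed from 0.13 to 0.15 for Tcf12 and from 0.15 to 0.14 for Id1, and stayed at 0.16 for Id3. With the replicate number as a block 0 genes passed, and no call changed; the adjusted p was 0.678 for Tcf3 and 0.613 for Tcf12, and the differences were the same by construction, −0.30 for Tcf3, −0.26 for Tcf12, 0.09 for Id1, −0.05 for Id2 and −0.25 for Id3. Id1 was below the stricter filter, which left out the lowest 60% of genes. The 5 members have 1 probe set each, so other summaries of probe sets gave the same differences.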
